A study of Drosophila melanogaster with 3 samples.

Results

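Chromosome 4 of Drosophila melanogaster held 390 of 51236 merged genomic regions. These remained when the regions listed for wek in 3 biological replicates were merged wherever they overlapped by at least 1 bp. The replicates contributed 292, 250 and 117 chromosome 4 regions out of 30000 each. Of the 3582 regions that passed the authors' irreproducible discovery rate threshold, called peaks from here on, 33 lay on this chromosome. The pooled list, made on the replicates together, also has 30000 regions and is labelled peaks and background as input for that threshold. The replicate lists are as long, so a region without a peak is not taken here as wek binding. The libraries form 1 group: chromatin immunoprecipitation with sequencing (ChIP-seq) of wek fused at its C terminus to green fluorescent protein, in whole embryos of both sexes aged 0 to 16 h. All replicates came from 1 transgenic line. No untagged line was compared. The description field calls each library an input control, while the assay title, antibody and series type give ChIP of wek, and they were treated as wek ChIP. Whole embryos mix all tissues and many stages, so binding in few cells and weak binding in many cells cannot be told apart.

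Chromosome 4, the dot chromosome, is the smallest chromosome of the fly. Its genes sit in chromatin that carries heterochromatin protein 1 and a protein specific to this chromosome, are interspersed with transposon remnants such as INE-1 and 1360, and yet many of them are active. Weckle, the protein of wek, has zinc fingers and a ZAD domain and acts with the Toll receptor. In the genome used, chromosome 4 was 1348131 bp long, 1.01% of the summed length of the 6 major arms. Its GC content was 34.8%, against 41.4 to 42.6% on the other arms, and annotated transposons covered 24.8% of it, against 4.06 to 7.74% of the others.

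The sequences shown first are those under chromosome 4 peak summits that hold the word GAATACCC, because the strongest peaks of the chromosome are among them. The word was taken from earlier results of these same data. It was found, on either strand and within 100 bp of the summit, at 6 of the 33 chromosome 4 peaks (18.2%, 95% exact interval 6.98 to 35.5%), against 98 of 3549 peaks on the other arms (2.76%, 2.25 to 3.35%). Each is given 5′ to 3′ on the strand that reads GAATACCC, with the word in capitals and 10 bases on each side, in dm6 coordinates.
Asator (chr4:482838-482865, minus strand): tgacggaaagGAATACCCtagatacaca
Gyf (chr4:867064-867091, minus strand): aaagtggcaaGAATACCCctgtgctaaa
pho (chr4:1181625-1181652, minus strand): tttaggcatcGAATACCCatgccaaaca
lgs (chr4:443966-443993, minus strand): atgttttatgGAATACCCtggttattta
CG31997 (chr4:156133-156160, plus strand): gtgctggattGAATACCCctttgaaagt
Cals and sv (chr4:1113296-1113323, plus strand): gtgtagctctGAATACCCtttcaaaaac
The centre of the word lay 2 to 26 bp from the summit in all 6. At Asator, Gyf, pho, lgs and CG31997 it lay 132, 53, 11, 69 and 87 bp upstream of the nearest coding transcription start site (TSS). It read along the strand of the gene at Asator, Gyf, pho and lgs, and along the opposite strand at CG31997. The copy in the interval of Cals and sv lay far from any coding TSS, in an annotated 3′ UTR.

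A wider view of the strongest peak, at Asator, shows the word in 128 bases that lie inside the annotated gene, upstream of 1 of its 5 start sites. The summit window of the peak ranked 3 in signal on this chromosome, between genes near zfh2, is given beside it. It held neither the word nor, within these 151 bases, any other of the 12 elements searched. Within 100 bp of its summit, the distance used for all counts here, this peak did hold the GATA site AGATAA.
Asator (chr4:482788-482915, minus strand): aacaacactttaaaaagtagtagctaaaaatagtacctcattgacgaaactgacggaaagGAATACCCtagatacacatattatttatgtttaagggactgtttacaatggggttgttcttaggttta
zfh2 (chr4:497840-497990, plus strand): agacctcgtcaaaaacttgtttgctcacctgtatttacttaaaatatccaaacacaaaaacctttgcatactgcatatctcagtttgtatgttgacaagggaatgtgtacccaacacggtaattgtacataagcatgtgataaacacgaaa
The word was not frequent on the chromosome itself. It occurred 26 times on chromosome 4, 19.3 copies per Mb against 21.0 on the other arms, and in 0.373% of consecutive 201-bp windows of chromosome 4. Of these 26 copies, 6 lay inside a peak (23.1%, 95% exact interval 8.97 to 43.6%), against 110 of 2779 copies on the other arms (3.96%). Inside any merged region, with or without a peak, lay 7 of the 26 (26.9%), against 642 of the 2779 (23.1%). The word was also counted in the replicates' own highest regions, taken as the 3582 of highest signal in each list. The word and the peaks both came from these libraries, so these counts are a description and not separate support. The word was at 6 of 40, 5 of 47 and 5 of 27 highest regions on chromosome 4 (15%, 10.6% and 18.5%). On the other arms it was at 2.82%, 2.77% and 2.33% of them. The share was higher on chromosome 4 in 3 of 3 replicates, by 12.1 ± 4.16 percentage points (SD, n = 3), with a two-sided exact sign-flip permutation p of 0.25, the smallest that 3 replicates can give. No comparison made here across the replicates can therefore pass 0.05, and over the 27 of them the Benjamini-Hochberg adjusted p ranged from 0.355 to 1.

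Other promoter and repeat elements were rarer under the chromosome 4 summits or did not differ beyond the number of peaks. The whole chromosome was itself poorer in GAGAGAG (119 copies per Mb against 241 on the other arms), GCCAT (1415 against 2373) and GGTCACAC (15.6 against 22.7). Other words, among them TATAAA and TATCGATA, were denser on chromosome 4. GAGA repeats (GAGAGAG, bound by GAGA factor) were at 0 of 33 chromosome 4 peaks (95% exact interval up to 10.6%), against 7.44% on the other arms, a share within that interval, while 1.74% of the 201-bp windows of chromosome 4 held one. In the highest regions of the replicates they were at 1 of 40, 0 of 47 and 0 of 27 on chromosome 4, against 9.01%, 3.9% and 11.3% on the other arms. The core GCCAT of sites for Pleiohomeotic, a DNA-binding Polycomb group protein whose own gene pho lies on chromosome 4, was at 3 of 33 peaks (9.09%, 1.92 to 24.3%), those of RpS3A, ci and PlexA, against 30.6% on the other arms. It was in 23.4% of the chromosome 4 windows, a share within the interval of the chromosome 4 peaks. The replicates' highest regions held it in 10%, 10.6% and 7.41% of cases on chromosome 4, against 29.2%, 30.2% and 31.2% on the other arms. The M1BP element (GGTCACAC) was at 0 of 33 peaks against 3.8%. The DRE (TATCGATA), bound by DREF, was at 2 of 33 (6.06%), those of Taf3 and PlexA, against 3.86%, although chromosome 4 as a whole carried 98.7 copies per Mb against 29.3 on the other arms. The TATA box (TATAAA) was at 11 of 33 peaks (33.3%, 18 to 51.8%) against 23.5%, and in 37.9% of the chromosome 4 windows. The remaining elements on chromosome 4 peaks were CACACACA (2 peaks), CAGCTG (2), CAGGTA (1), CATCNCTA (1), TAATTA (6) and AGATAA (6). Each of their exact intervals contained the share on the other arms. A match of letters is a description and not a site.

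The 33 peaks on chromosome 4 ran from rank 48 to rank 3101 of the list by signal, the signal being the value of the authors' caller and comparable within 1 list only. Signals ran from 159 to 1660 with a median of 229, beside a median of 218 over all 3582 peaks. Every one of the 33 was identical to a region of the pooled list, which the authors called on the replicates together. They fell in 32 of the 390 merged regions, since 1 merged region in the interval of Cals and sv held 2. That was 8.21% of the chromosome 4 regions (95% exact interval 5.68 to 11.4%), against 6.83% of those on the other arms and 6.84% of all merged regions, both within that interval. A region of the pooled list was overlapped by 156 of the 390 (40%), against 50.6% on the other arms and 50.5% of all merged regions. Regions in all 3 replicates numbered 52 (13.3%, 10.1 to 17.1%), against 17.4% on the other arms and 17.4% of all merged regions.

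The strongest chromosome 4 peak was at Asator, which encodes a kinase of the tau tubulin kinase family (4:482584-483114, summit 107 bp upstream of the TSS). Its signal in the pooled list was 1660, rank 48, and it ranked 41, 39 and 126 in replicates 1, 2 and 3 (68.7 ± 49.7, SD, n = 3). The peak at Gyf, a GYF domain protein of translational repression (4:866942-867276, 79 bp upstream), had a signal of 1525 and ranks of 57, 38 and 223. Both stood higher in replicates 1 and 2 than in replicate 3. Next came the intergenic peak whose nearest coding TSS was that of zfh2, a zinc finger homeodomain transcription factor (4:497758-498063, 3895 bp upstream). Its signal was 1206, and ranks of 91, 124 and 103 (106 ± 16.7, SD, n = 3) placed it alike in all replicates. It was the best-ranked chromosome 4 region of replicate 3. Asator was best in replicate 1 and Gyf in replicate 2.

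**Figure D1:**
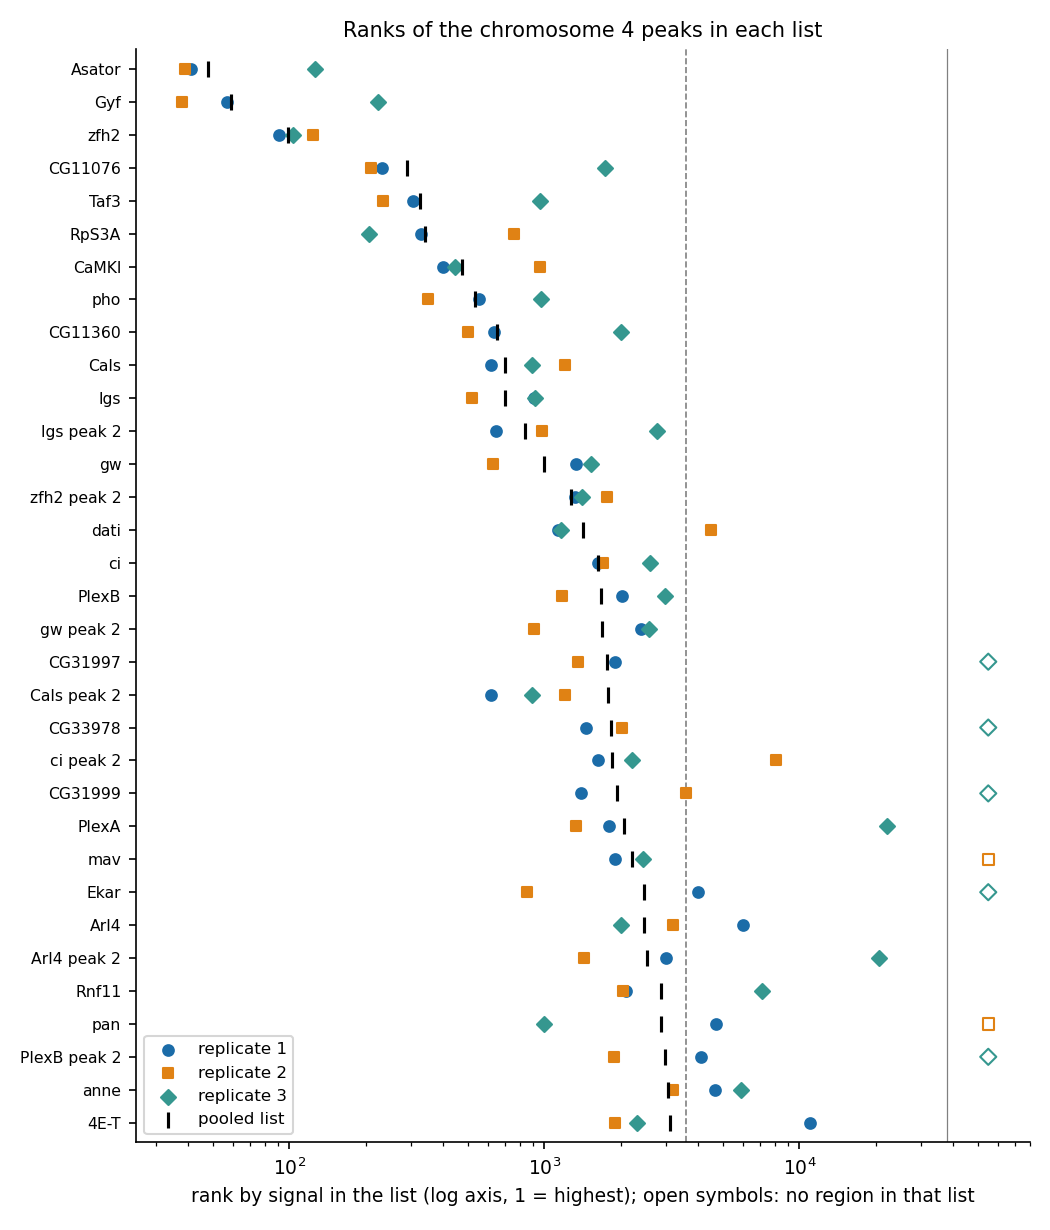
Rank by signal (log axis, 1 is the highest) of each of the 33 chromosome 4 peaks, named by the gene of the nearest coding start site and ordered from high to low pooled signal, with coloured symbols for the best overlapping region of each replicate and black bars for the pooled list; the dashed line is at rank 3582. Open symbols at the right mark replicates with no overlapping region, 2 in replicate 2 and 5 in replicate 3.

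Of the next 7 in signal, the first was at CG11076, which had a signal of 659 and ranks of 230, 208 and 1728. Taf3, a subunit of the general transcription factor TFIID, had 619 and ranks of 306, 232 and 959. RpS3A, the chromosome's gene for a protein of the small ribosomal subunit, had 602 and ranks of 327, 759 and 206, with the summit 4 bp inside the gene. RpS3A was thus highest in replicate 3, unlike CG11076 and Taf3. The kinase gene CaMKI had a signal of 490 and ranks of 399, 960 and 444. The gene pho had a signal of 464 and ranks of 553, 351 and 967. CG11360 followed with 396, and the stronger of the 2 peaks in the 3′ UTR that overlaps the intervals of Cals, a calsyntenin gene, and sv, the fly Pax2 gene, had 379. All 7 lay among the highest regions of every replicate.

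Of the 33 peaks, 26 overlapped a region in all 3 replicates and 7 in 2. Among the highest regions, 18 were found in all 3 replicates, 11 in 2 and 4 in 1. The authors derived the peaks from these libraries, so this count is a description. The 2 without any region in replicate 2 were mav, a ligand of the TGF-beta family, and pan, the TCF factor of Wnt signalling. The peak at pan ranked 4692 in replicate 1 and 999 in replicate 3, and that at mav 1893 and 2435. The 5 without any region in replicate 3 were CG31997, CG33978, CG31999, Ekar and the weaker peak of PlexB. That was 15.2% of the chromosome 4 peaks, against 1.24% of peaks on the other arms, whereas for replicate 2 the shares were 6.06% on chromosome 4 and 10.4% on the other arms. PlexA and the promoter peak of Arl4 overlapped only low regions of replicate 3, at ranks 22008 and 20591. Another region of replicate 3, with its summit within 500 bp of the TSS of PlexA, ranked 7200.

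Several genes had a pair of peaks. The gene lgs, whose protein Legless links beta-catenin to its coactivator Pygopus, had a promoter peak (signal 343, 62 bp upstream) and was also nearest to an intergenic peak 19096 bp downstream of its TSS (signal 377). The gene gw, which encodes the silencing factor GW182 of the microRNA pathway, had peaks of 311 and 228. The promoter peak of zfh2 had 270, beside the 1206 of the intergenic one. The gene ci, the transcription factor of Hedgehog signalling, had a promoter peak of 232 and a peak of 214 that lay 2110 bp upstream in the antisense gene asRNA:CR43957. At PlexB, a semaphorin receptor gene, a promoter peak of 229 stood beside a peak of 163 in lncRNA:CR44440. At Arl4, a small GTPase gene, the promoter peak of 180 stood beside one of 182 in lncRNA:CR46488. The other peaks were near dati (253, intergenic), CG31997 (221), Cals and sv (219), CG33978 (216, in coding sequence), CG31999 (210), PlexA (201), mav (193), Ekar (182), Rnf11 (166, in an intron), pan (166), anne (160) and 4E-T (159, in asRNA:CR44030). At the 4 peaks classed in noncoding genes no coding gene covered the summit, which the way summits were classed requires. The files carry no strand, so genes that overlap at a peak, as Cals and sv do, cannot be told apart.

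The peaks just inside the threshold were the weaker peak of PlexB with a signal of 162.7, anne with 160.1 and 4E-T with 159.0. The first pooled regions outside it on chromosome 4 were at MED26, a Mediator subunit gene, with 146.2, unc-13, of synaptic vesicle priming, with 144.0, and Tdg, a DNA glycosylase gene, with 142.5. MED26 ranked 3587 in the pooled list and 3962, 8330 and 1650 in the replicates. The region at unc-13 ranked 4382, 2906 and 3926, more alike between replicates than that of 4E-T, which was inside with 10972, 1887 and 2299.

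Of the 358 chromosome 4 regions without a peak, 29 were among the highest of at least 1 replicate, 13 in replicate 1, 16 in replicate 2 and 4 in replicate 3. On the other arms 47373 regions had no peak. Of those, 1966 were among the highest of 1 replicate and 198 of 2 or 3. Of the 29 on chromosome 4, 4 were so in 2 replicates, and all 4 of these had no region in replicate 3. At CaMKII, the calcium-dependent kinase of synapses, the region (4:1051330-1051854, 134 bp upstream of a TSS) ranked 774 and 639 in replicates 1 and 2, but 23222 in the pooled list. At CG32017 (4:1146374-1146761, 51 bp upstream) the ranks were 1296 and 1237, and no region of the pooled list overlapped it. The region at Eph, an ephrin receptor gene, ranked 2567 and 2192 and also had no pooled region. The region at Cadps ranked 3308 and 2741, and 3971 in the pooled list. These 4 were chosen after their values were seen. Of the 32 chromosome 4 regions that were among the highest of 2 or 3 replicates, 2 had no pooled region (6.25%, 95% exact interval 0.766 to 20.8%), against 13 of 3092 on the other arms (0.420%). No peak was held by 4 of these 32 (12.5%), against 6.40% on the other arms, and by 25 of the 29 regions among the highest of 1 replicate alone (86.2%), against 78.7%.

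The regions without a peak that were present in all 3 replicates and had the best mean ranks were mostly at promoters. In order of mean rank, from 3738 to 6686, they were at unc-13, apolpp (the lipophorin precursor), Sox102F (a Sox transcription factor), MED26, anne, Rad23 (of proteasomal turnover), Zip102B (a zinc transporter), PlexA, dati and mGluR (the metabotropic glutamate receptor). At unc-13 the ranks were 4382, 2906 and 3926, and at mGluR 6842, 7246 and 5971, which is alike between the replicates. At MED26 they were 3962, 8330 and 1650, and at PlexA 5590, 2344 and 9641, which is not.

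Genes of chromosome 4 were counted as bound if 1 of their annotated TSSs had a peak summit no more than 500 bp away. Of its 80 protein-coding genes, 21 were bound (26.3%, 95% exact interval 17.0 to 37.3%), against 15.4% of 13865 genes on the other arms and 15.5% of all coding genes. In the replicates' highest regions 29, 27 and 16 genes were bound (24 ± 7, SD, n = 3), which is 36.3%, 33.8% and 20%, against 15.9%, 12.9% and 16.1% on the other arms. The share was higher on chromosome 4 in 3 of 3 replicates, by 20.3, 20.8 and 3.95 percentage points (exact sign-flip p = 0.25). In all 3 replicates 13 genes were bound, and 13 of the 21 remained when a peak also had to overlap the highest regions of replicates 2 and 3. Some summit of any replicate lay within 500 bp of a TSS for 64 genes, and for 16 there was none. These counts over the replicates have no share of the other arms beside them and are descriptions. In the whole pooled list 45 of the 80 genes had a summit there (56.25%), against 52.0% on the other arms. Bound genes had a median length of 10426 bp and the others of 9754 bp, and both had a median of 1 start site.

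The role lists are not complete, and genes outside them, among them the kinase gene CaMKII and the forkhead gene fd102C, neither of them bound, were counted in no list. Over all 80 coding genes of the chromosome 21 were bound (26.3%), and over those of all arms 15.5%. Signalling genes were bound in 6 of 14 cases (42.9%). The ligand gene was mav, and the receptor genes were PlexA and PlexB. Asator and CaMKI encode kinases and Arl4 a small GTPase. The genes myo and Actbeta of other ligands of the TGF-beta family were not bound, nor were Ephrin, Eph, Crk, RhoGAP102A, PIP4K and Dyrk3. In replicates 1, 2 and 3, 7, 6 and 4 of these 14 genes had a highest region.

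Transcription factor and chromatin genes were bound in 6 of 18 cases (33.3%), beside 26.3% over all 80 coding genes of the chromosome. These were Taf3, pho, lgs, zfh2, ci and pan, with pooled signals from 619 at Taf3 down to 166 at pan. Among them are the transcription factors at the end of the Hedgehog pathway (ci) and of the Wnt pathway (pan, with its partner lgs). The Pax genes ey, toy and sv, which act in eye and sense organ development, were not bound, nor were NfI, Hcf, dati, Pur-alpha, onecut, MED26, Sox102F, fuss and Mitf. The replicates had 6, 5 and 7 of these genes with a highest region, and replicate 3 included MED26 at rank 1650. In this group replicate 3 had the most, while for genes in no role list replicate 3 had 2 against 8 and 6.

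Genes of translation, RNA regulation and protein turnover were bound in 3 of 6 cases (50%), Gyf, RpS3A and gw, all of them in every replicate. Rad23, eIF4G1 and 4E-T were not. Metabolism and transport genes were bound in 1 of 11 cases (9.09%), at anne. Synapse genes were bound in 1 of 8 (12.5%), at Ekar, a kainate-type glutamate receptor gene. None of the 4 muscle and cytoskeleton genes Ank, bt, Zyx and Kif3C was bound. Regions near start sites of both Zyx and apolpp ranked 2810 in replicate 1 and, at another place about 4 kb away, 2989 in replicate 2. Among the 19 genes in no role list, CG11076, CG11360, CG31997 and CG31999 were bound. These groups are small and were set with earlier results known, so their shares are described without a test. Whether any of them differs from the 26.3% over all 80 genes was not tested.

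**Figure D2:**
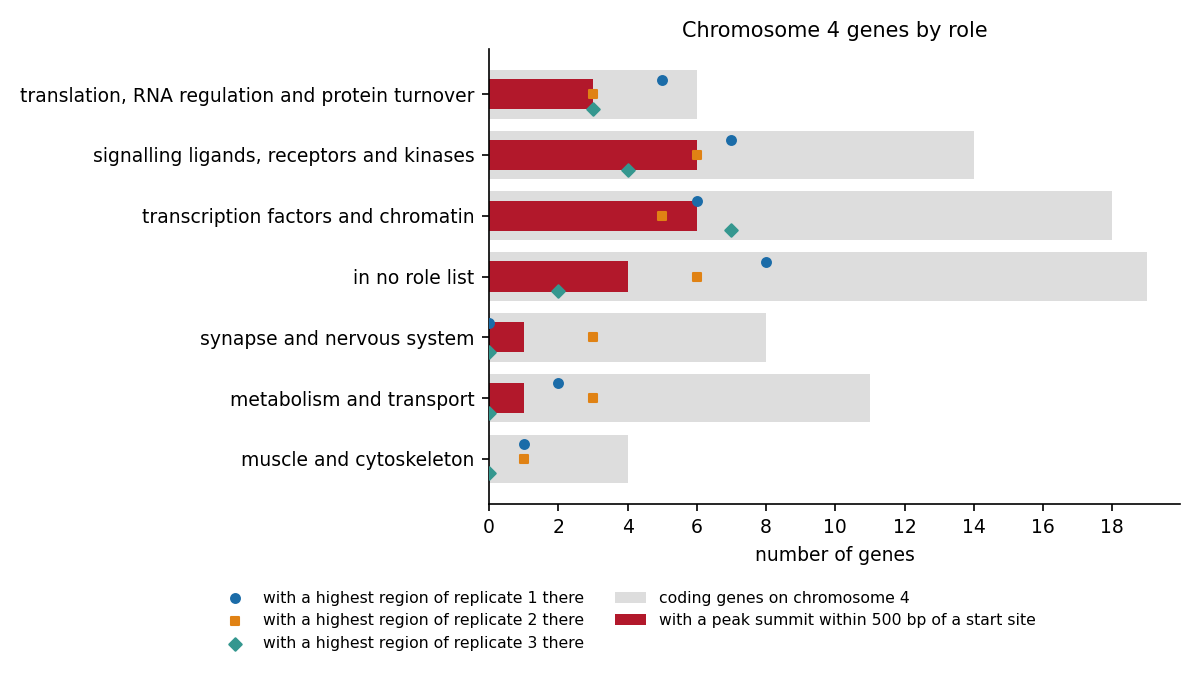
Number of chromosome 4 coding genes in each role list (grey bars), those with a peak summit within 500 bp of a start site (red bars), and those with a highest region of each replicate there (symbols). Signalling genes had 6 of 14 bound, transcription factor and chromatin genes 6 of 18, and muscle and cytoskeleton genes 0 of 4. Over all 80 genes 21 were bound (26.3%), and differences between the lists were not tested.

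Bound genes of chromosome 4 were less often in divergent pairs than bound genes of the other arms. A gene was called divergent when another coding gene started head to head within 1000 bp. Of the 21 bound genes, 3 were divergent (14.3%, 95% exact interval 3.05 to 36.3%), against 56.3% of bound genes on the other arms. Unbound genes were divergent in 19 of 59 cases on chromosome 4 (32.2%), against 32.6% on the other arms. The 32.2% lies within the interval of the bound genes of chromosome 4.

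Most peaks of chromosome 4 lay at promoters, and 1 lay in an intron. A summit within 500 bp of a coding TSS, called a promoter here, was found for 22 of the 33 peaks (66.7%, 95% exact interval 48.2 to 82.0%), against 51% of the peaks on the other arms, a share within that interval. Only 1 peak, at Rnf11, a ubiquitin ligase gene, lay in an intron (3.03%), 671 bp from the TSS, against 33.7% of peaks on the other arms. Introns nonetheless made up 42.2% of the bases of chromosome 4, against 39.3% of the other arms, by the same classes. Noncoding genes held 4 peaks (12.1% against 1.80%), the space between genes 3 (9.09% against 11%), 3′ UTRs 2 (6.06% against 1.13%) and coding sequence 1 (3.03% against 0.479%).

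The same held in the highest regions of each replicate. Introns held 7.5%, 10.6% and 3.70% of them on chromosome 4, against 32.4%, 38.2% and 30.2% on the other arms. The intron share was lower on chromosome 4 in 3 of 3 replicates, with a difference of −26.3 ± 1.36 percentage points (SD, n = 3; exact sign-flip p = 0.25). The promoter share of the highest regions was 72.5%, 66.0% and 63.0% on chromosome 4, against 53.6%, 41.6% and 55.5% on the other arms. It was higher in 3 of 3 replicates, by 16.9 ± 8.63 points (exact sign-flip p = 0.25). Over all regions of the lists the promoter share differed less, at 30.8%, 25.6% and 37.6% on chromosome 4 against 31.1%, 18.1% and 30.4% on the other arms (4.82 ± 4.43 points, exact sign-flip p = 0.5, and 7.38 points without replicate 1). The intron share over all regions was 21.2%, 26% and 17.9% on chromosome 4, against 39.5%, 42.1% and 38.8% on the other arms.

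**Figure D3:**
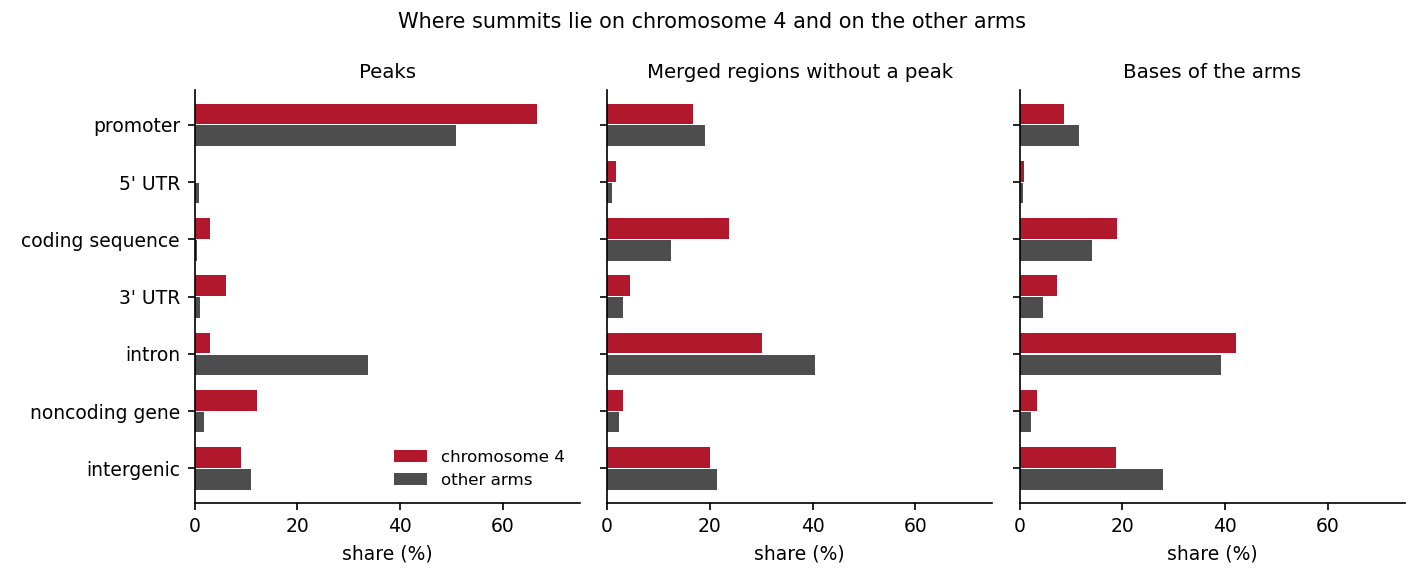
Share of summits in each class of annotation on chromosome 4 (red) and on the other arms (grey), for peaks on the left and for merged regions without a peak in the middle, beside the share of the bases of the arms on the right. Introns held 3.03% of the chromosome 4 peaks and 33.7% of the peaks on the other arms.

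Among the merged regions without a peak the difference in introns was smaller and promoters were no more frequent on chromosome 4. Of the 358 on chromosome 4, 108 lay in introns (30.2%), against 40.4% on the other arms, and 60 at promoters (16.8%), against 19.1%. Coding sequence held 85 of them (23.7%), against 12.5% on the other arms, where it made up 19.0% of the bases of chromosome 4 and 14.0% of the others. In the lists of replicates 1, 2 and 3 the share of summits in coding sequence was 15.1%, 21.2% and 9.40% on chromosome 4, against 7.82%, 8.12% and 9.62% on the other arms. It was thus higher on chromosome 4 in replicates 1 and 2 and not in replicate 3.

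Summits at promoters lay upstream of the TSS more often than downstream. This was so for 18 of the 22 promoter peaks of chromosome 4 (81.8%, 95% exact interval 59.7 to 94.8%), with a median position 81.5 bp upstream, against 67.6% and 40 bp on the other arms. In the highest regions of the replicates the upstream shares were 69.0%, 80.6% and 70.6% on chromosome 4, against 64.6%, 75.7% and 61.4% on the other arms. In the whole pooled list they were 73.1% (49 of 67, 60.9 to 83.2%) on chromosome 4 and 52.8% on the other arms.

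The number of regions on chromosome 4 differed widely between the replicates. Their density was 216.6, 185.4 and 86.8 regions per Mb in replicates 1, 2 and 3 (163 ± 67.8, SD, n = 3), against 224.2, 224.5 and 225.5 on the other arms. The log2 ratio was −0.05, −0.28 and −1.38 (mean −0.57 ± 0.71, exact sign-flip p = 0.25, −0.16 without replicate 3, and −0.10 over regions with q-values up to 0.01). Replicate 3 set most of the mean. Among the highest regions the densities on chromosome 4 were 29.7, 34.9 and 20 per Mb in the 3 replicates, against 26.7, 26.7 and 26.8 on the other arms, a mean log2 ratio of 0.04 ± 0.42 (exact sign-flip p = 1). Depth of the libraries is unknown, since the files hold no read counts, and its part in these densities was not tested.

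By rank, the share of regions on chromosome 4 in replicate 3 was 0.754% in ranks 1 to 3582 and 0.390%, 0.29% and 0.36% in the 3 lower bins. In replicate 1 it was 1.12%, 0.997%, 0.910% and 0.970%, near the 1.01% that the chromosome makes up of the length of the arms. Replicate 2 had 1.31%, 1.08%, 0.520% and 0.820%. In each list the highest bin held the largest share. Put the other way, 13.7%, 18.8% and 23.1% of the chromosome 4 regions of the 3 replicates were among the highest, against 11.9% on the other arms in each and 11.9% of all regions. The difference was 1.78, 6.92 and 11.2 percentage points (6.62 ± 4.71, exact sign-flip p = 0.25, and 4.35 without replicate 3).

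**Figure D4:**
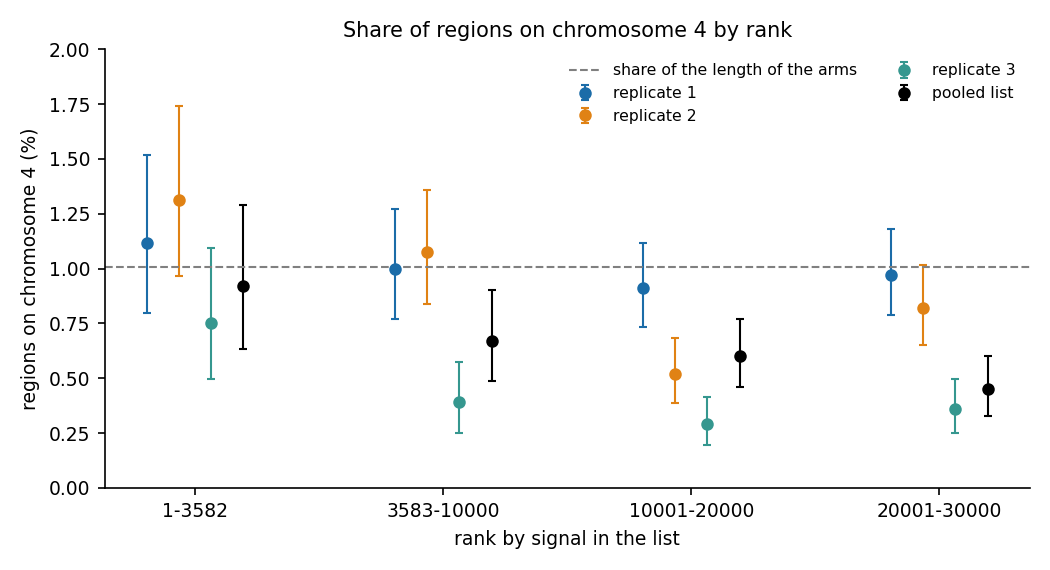
Share of regions on chromosome 4 (vertical axis, percent) in 4 bins of rank by signal for replicates 1 to 3 and the pooled list, with 95% exact intervals that cover the number of regions only; the dashed line is the share of chromosome 4 in the length of the arms, 1.01%. Replicate 3 stays below the line in every bin, at 0.290 to 0.754%.

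Along the chromosome the regions were spread unevenly, with 67, 106, 86, 83 and 48 of the 390 in 5 consecutive segments of 270 kb. The peaks numbered 12, 9, 5, 4 and 3 in the same segments, and the coding genes 19, 14, 19, 15 and 13. The last segment held 31 and 35 regions of replicates 1 and 2 but 2 of replicate 3, both at peaks, those in the interval of Cals and sv and at pho. The longest gap between regions was 75, 64.6 and 126 kb in replicates 1, 2 and 3, and the end of the chromosome beyond the last region measured 114, 80.8 and 166 kb. Neighbouring peaks lay a median of 15102 bp apart, with 9 of the gaps under 5000 bp. The widest gap between peaks, 195578 bp, ran between the peaks of CG11360 and Gyf (4:671363-866942) and holds the genes ey, bt and Sox102F.

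Regions found in 1 replicate made up 244 of the 390 (62.6%, 95% exact interval 57.6 to 67.4%), against 58.9% on the other arms, of which 117 were from replicate 1, 106 from replicate 2 and 21 from replicate 3. None of these 244 had a peak. The peaks equalled the 3582 pooled regions of highest signal in number and median signal, on chromosome 4 (33) and on the other arms (3549). They came from these same libraries, so the counts of peaks by number of replicates are a description. Regions in 2 replicates numbered 94 (24.1%), against 23.6% on the other arms. Of the 94, 58 were in replicates 1 and 2, 30 in 1 and 3, and 6 in 2 and 3, and 7 of the 94 had a peak. The 52 in all 3 replicates held 25 of the 32 regions with a peak. The promoter share was 55.8% for regions in all 3 replicates, and 15.4%, 3.77% and 14.3% for those found in replicate 1, 2 or 3 alone. Across chromosome 4 regions shared by 2 replicates, Spearman's rho of the ranks was 0.73 between replicates 1 and 2 (110 regions), 0.72 between 1 and 3 (82) and 0.73 between 2 and 3 (58), against 0.63, 0.65 and 0.58 on the other arms. Of the merged regions with a region of replicate 3, 75.2% also had one of replicate 1, against 59.5% on the other arms. They were 31.9% of the regions with one of replicate 1, against 62.3% on the other arms. The deposited file records derive each replicate's list and the pooled list from the alignments and 1 further file common to all, taken here as their shared control.

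Regions on chromosome 4 had less GC than those elsewhere, as the chromosome does. The median GC within 100 bp of the summit was 37.6%, 37.6% and 37.3% in the 3 replicates, against 43.8%, 43.3% and 44.8% on the other arms, a difference of −6.47 ± 0.90 percentage points (exact sign-flip p = 0.25). Set against each chromosome's own GC, the regions lay 2.67 ± 0.14 points above chromosome 4 and 1.79 ± 0.76 points above the other arms (SD, n = 3 each). The highest regions had medians of 35.1%, 35.8% and 35.8% on chromosome 4, against 41.3%, 38.3% and 42.8% on the other arms.

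Transposons were far more often part of a region on chromosome 4 than elsewhere, and less so in the highest regions. They also covered more of the chromosome itself, 24.8% of its bases against 4.06 to 7.74% on the other arms. A share of bases and a share of regions with any overlap are different measures. At least 1 bp of an annotated transposon was held by 22.9%, 21.2% and 12.0% of the chromosome 4 regions of replicates 1, 2 and 3, against 0.707%, 1.44% and 0.599% on the other arms (17.8 ± 5.70 points, exact sign-flip p = 0.25). In the highest regions the shares were 5%, 8.51% and 7.41% on chromosome 4, against 0.395%, 0.820% and 0.281% on the other arms. Of the 32 merged regions with a peak 3 held one (9.38%), against 97 of the 358 without a peak (27.1%). The elements were mostly INE-1, a Helitron-like transposon remnant spread over this chromosome, in 59 merged regions, and 1360, a P element-like DNA transposon, in 20. Cr1a followed with 7. Chromosome 4 carries 344 annotated INE-1 copies and 60 copies of 1360. A peak overlapped INE-1 at Gyf and 1360 at the Arl4 peak in lncRNA:CR46488.

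Masked bases gave a smaller difference. Repeats masked in the genome sequence made up 19.9%, 18.5% and 18.1% of region bases on chromosome 4, against 14.7%, 14.3% and 14.1% on the other arms (4.46 ± 0.66 points, exact sign-flip p = 0.25). The chromosome as a whole was masked to 27.8%, so the regions lay 8.97 ± 0.94 points below it, with a difference of −5.67 ± 0.28 points for the regions of the other arms (SD, n = 3 each). In the highest regions the difference between chromosome 4 and the other arms was −0.62 points. How many reads could be placed in repeats is not in these files, and its part in these shares was not tested.

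**Figure D5:**
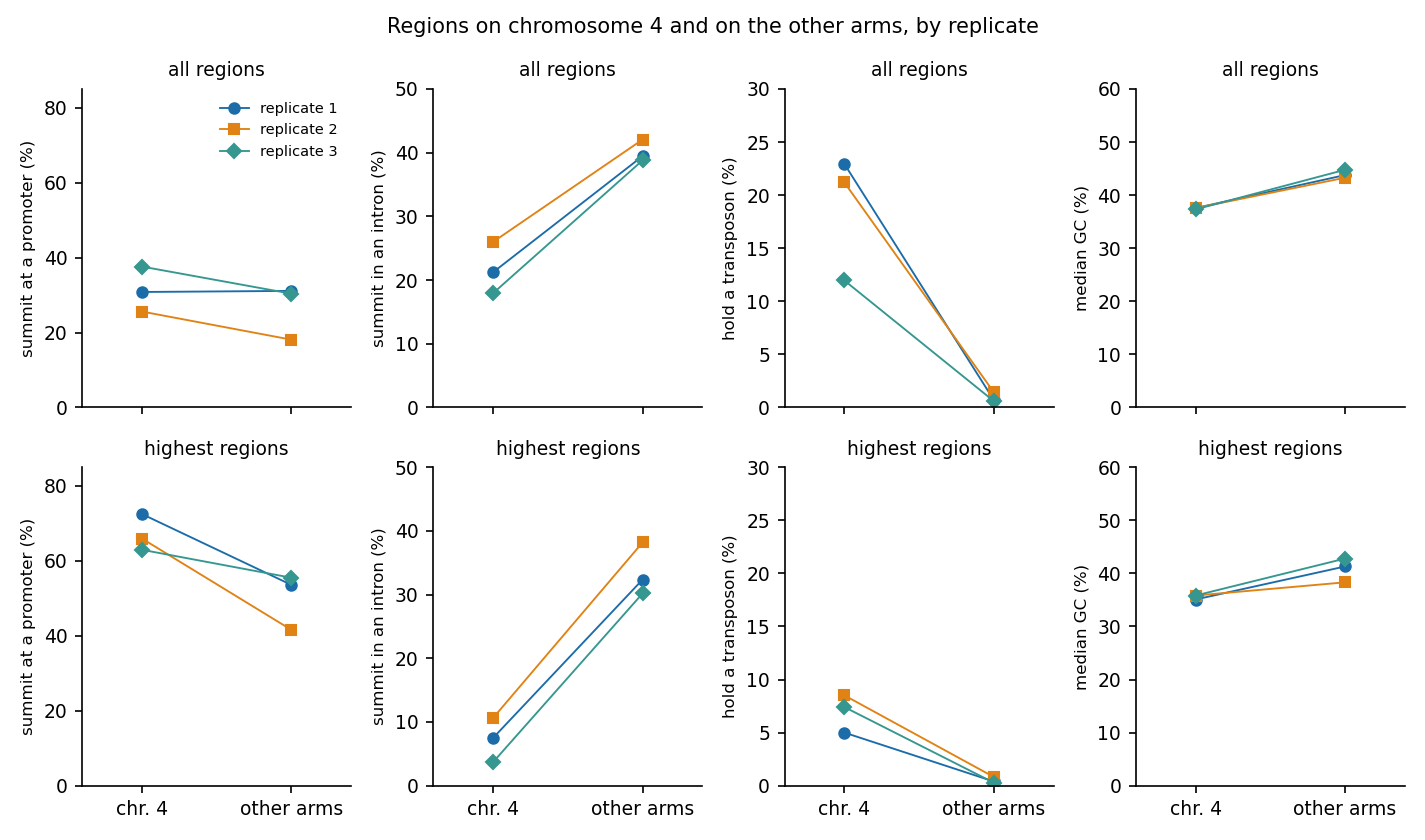
For each replicate, the share of summits at promoters and in introns, the share of regions that hold a transposon and the median GC content (vertical axes, percent) on chromosome 4 and on the other arms, over all regions (upper row) and the 3582 highest (lower row); lines join the values of 1 replicate. In the lower row the intron share is 3.70 to 10.6% on chromosome 4 and 30.2 to 38.2% on the other arms.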

How the data were processed

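The lists were made by the authors on dm6, per the labels, from chromatin sonicated to fragments of 200 to 800 bp. For the aligner, the peak caller and the threshold, names and settings were not given in the sources. Signal and −log10 of the q-value are the authors' deposited values. Signal was used for ranks within 1 list, and a q-value of at most 0.01 for 1 alternative. The summits of 4 regions, at or past the end, were set to the last base. The lists give no counts, so depth is unknown; exact 95% Clopper-Pearson intervals cover the number of regions only, and neighbouring regions are not independent.

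Regions on arms X, 2L, 2R, 3L, 3R and 4 were merged across replicates. Genes came from Ensembl release 115 on the same assembly, sequence from RefSeq. A summit was put in the first class that fitted: promoter, coding sequence, 5′ UTR, 3′ UTR, intron, noncoding gene, intergenic. The 61 symbols of the role lists were all matched. Differences between chromosome 4 and the other arms were taken per replicate and tested with a two-sided exact sign-flip permutation test. Replicates are biological per the labels, but come from 1 line. The code was tested on simulated data, with Python 3.11.15, pandas 2.3.3, NumPy 2.4.6, SciPy 1.17.1 and Matplotlib 3.10.9. Members, gene lists, elements and comparisons were chosen with earlier results of these data known, and those on introns, coding sequence, transposons, divergent genes and segments after seeing these values. Named genes were those nearest to peaks (all 33, although the rule asked for the 30 of highest signal), 10 regions without a peak of best mean rank in all 3 replicates, the best of each replicate, 3 on each side of the threshold, and up to 4 per role list, beside which the text lists all members of most role lists.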

Additional observations from a re-analysis of the deposited data

How the results depend on the processing

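Of 59 alternative values for 11 results, 54 kept their direction or stayed within 1.5 times the count; 43 of the alternatives were planned and the other 16 were added after the data were seen. Among the highest regions alone, the log2 density ratio of chromosome 4 turned to 0.0386 and the masked share difference to −0.62 points. Limited to q-values up to 0.01, the density ratio was −0.10 (exact sign-flip p = 1), against −0.57. With the 1791 peaks of higher signal, 19 merged regions overlapped a peak instead of 32, and 0 peaks lay in introns instead of 1, since fewer peaks entered. Without replicates 1, 2 and 3 in turn, 13 to 17 of the 21 bound genes had a peak that overlapped the highest regions of both remaining replicates, a demand that the 21 did not have to meet. The density ratio ranged from −0.83 to −0.16. The promoter share difference ranged from 3.48 to 7.38 points, the intron share difference of the highest regions from −27.0 to −25.7 and the transposon share difference from 15.6 to 21.0. Merging by summits within 100 bp gave 496 regions, of which 43 overlapped a peak, and a reciprocal overlap of 50% left 24. With 3 replicates no test here can pass 0.05, and with 33 peaks the intervals of shares are wide.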
